A study of Rattus norvegicus with 9 samples.

Results

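Fam111a (FAM111 trypsin like peptidase A, gene identifier 499322) is 1 of the 23026 genes counted in rat bone by this study. It was chosen by its counts: 2 of the 3 libraries from treated rats held about 10 times as many as the other 7 libraries. The levels of Fam111a, and what the treatment contrast makes of them, are therefore a description, with no test. RNA from the bone of 9 female Sprague–Dawley rats, an outbred stock, was sequenced after poly(A) selection, with 3 libraries in each of 3 groups. The rats were 8 weeks old at purchase. Sham rats kept their ovaries and lost only nearby fat, and received the vehicle sodium carboxymethyl cellulose (CMC-Na). OVX rats had both ovaries removed, a model of postmenopausal osteoporosis, and received the same vehicle. OVX-AS-IV-High rats were ovariectomized too and, from 6 weeks after surgery, received astragaloside IV (AS-IV), a saponin of Astragalus membranaceus, by gavage at 80 mg/kg for 8 weeks. By the study's methods, AS-IV was prepared in 1% CMC-Na. Sham and OVX rats received their vehicle by gavage too, over the same 8 weeks from 6 weeks after surgery. By the labels, the CMC-Na of Sham replicates 1, 2 and 3 was 1%, 2% and 3%, respectively, and that of each OVX library was 1%. The study's methods give 1% for Sham and OVX rats alike. The Sham libraries were kept as 1 group. The labels name the tissue only as bone; the methods describe a frozen femur.

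FAM111A is a nuclear protease with a trypsin-like catalytic domain. It binds PCNA, the sliding clamp of DNA replication, and helps forks to pass proteins that are covalently trapped on DNA. It also restricts the replication of some viruses. In people, dominant missense variants of FAM111A cause Kenny-Caffey syndrome type 2 and gracile bone dysplasia. Short stature, hypoparathyroidism with low blood calcium, and long bones with a thickened cortex and a narrow marrow cavity, or bones that are thin and brittle, belong to these disorders. The deposited annotation of the rat gene carries terms of the same kind, among them DNA replication, replication fork processing, protein-DNA covalent cross-linking repair and negative regulation of viral genome replication.

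The region just ahead of the gene is shown because the values below concern the amount of this gene's RNA. It covers the 153 bases before the first annotated base of Fam111a on chromosome 1, from the RefSeq promoter table of build GRCr8, chr1:219065389-219065541, plus strand. The counts themselves were made on build mRatBN7.2. Capitals mark matches to CCAAT and to the GC box GGGCGG on either strand.

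Fam111a upstream region: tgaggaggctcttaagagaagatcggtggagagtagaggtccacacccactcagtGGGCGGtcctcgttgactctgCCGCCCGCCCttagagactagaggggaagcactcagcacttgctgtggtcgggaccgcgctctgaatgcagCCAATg

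The window held 1 CCAAT, a motif found in 21.9% of 33469 RefSeq windows of the same length and position in the promoter table. That position is offsets 250 to 98 from the start used there, which for Fam111a lies inside the annotated gene. How far the other windows lie from the first annotated base of their genes was not compared. It held 3 GC boxes, of which 2 overlap, and 16.9% of the windows held at least 1. GC content was 59.5%, against a median of 50.3% over the windows, and the window held 8 CG dinucleotides against a median of 3. A search on both strands found no interferon-stimulated response element (GAAA and GAAA with 2 bases between them, in 2.07% of windows), no estrogen response element (GGTCA and TGACC with 3 bases between them, 0.0149%) and no E2F motif (TTTNGCGC, 0.559%). It also found no TTTGAA (cell cycle homology region, 11.3%), no TATAAA (7.78%) and no CACGTG (E box, 2.93%). These matches describe letters only, since binding to this region was not measured.

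Total counts per library lay between 34874880 and 37298250, so that 1000 counts of a gene correspond to nearly the same share of every library. Fam111a had 2939, 2851 and 3718 counts in Sham replicates 1, 2 and 3. The 3 OVX libraries held 4270, 3275 and 3833 counts, in the order of their replicate numbers. In OVX-AS-IV-High replicates 1, 2 and 3 it had 3758, 41251 and 36540 counts. OVX-AS-IV-High replicates 2 and 3 thus stood far above every other library, while replicate 1 of the same group lay among the OVX libraries. The Sham and OVX libraries overlapped.

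After TMM normalization, a scaling that makes most genes comparable between libraries, the levels in CPM (counts scaled to a common library size) were 1117 and 1004 in the 2 high libraries. The 7 other libraries had between 80.8 and 116 CPM, with a median of 103.5 and a coefficient of variation of 13.8%. The second highest library was 8.63 times the third highest, whereas the third highest was 1.44 times the lowest. The 2 high libraries differed from each other by 1.11 times. Against the median of the other 7, they were 10.8 and 9.71 times as high.

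**Figure D1:**
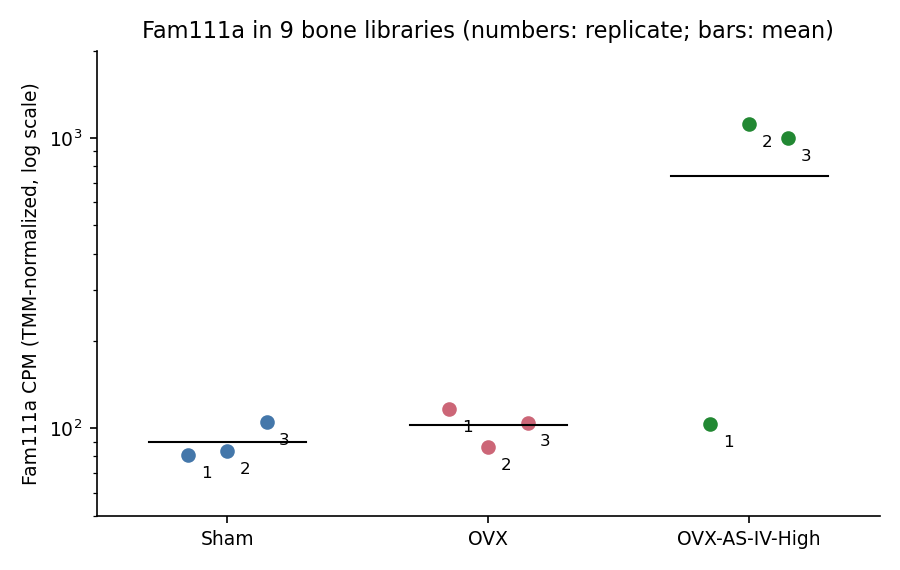
Fam111a CPM after TMM normalization (log scale, vertical axis) in each of the 9 libraries, by group (horizontal axis); points are libraries with their replicate numbers and black bars are arithmetic group means. OVX-AS-IV-High replicates 2 and 3, at 1117 and 1004 CPM, sit above all others, and the mean of that group falls where none of its libraries lies.

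In order of level, OVX-AS-IV-High replicates 2 and 3 were followed by OVX 1, Sham 3, OVX 3, OVX-AS-IV-High 1, OVX 2, Sham 2 and Sham 1. Counting error was small beside these steps. As a share of the unscaled library total, OVX-AS-IV-High replicate 2 held 1110 CPM (95% Wilson interval from 1099 to 1120) and replicate 3 held 1006 (from 995 to 1016), so these did not overlap. Sham 1 and Sham 2, at 82.1 (from 79.2 to 85.1) and 81.8 (from 78.8 to 84.8), did. The intervals cover counting error only and not the variation between rats.

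Per unit of length, Fam111a moved from the upper range of expressed genes to near the top of the list. In FPKM, the authors' value scaled by gene length and library size, the Sham libraries had 23.0, 22.9 and 29.2. The OVX libraries had 33.0, 24.9 and 29.2, and OVX-AS-IV-High replicates 1, 2 and 3 had 28.2, 310.8 and 281.7. Among the 23026 genes of each library, these values ranked between 2339 and 3232 in the 7 lower libraries, but 206 and 226 in the 2 high ones. For comparison, the mean FPKM of Pcna, an abundant replication gene, was 207.8 for Sham, 262.3 for OVX and 255.5 for the treated group. Fam111a lay below these means in the 7 libraries and above them in the 2. All 9 libraries gave the same length for the gene, 3570 bases, from counts and FPKM, so both files hold the same measurement.

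The group means of Fam111a were 89.7 ± 13.1 CPM for Sham and 102.2 ± 15.1 CPM for OVX, while that of OVX-AS-IV-High was 741.6 ± 555.5 CPM (each with its SD, n = 3). The SD of the treated group was 74.9% of its mean, against 14.6% in Sham and 14.7% in OVX. The fitted log2FC was 2.86 for OVX-AS-IV-High vs. OVX and 3.05 for OVX-AS-IV-High vs. Sham, but 0.19 for OVX vs. Sham. The former 2 values are averages over libraries that do not resemble each other: replicate 1 of the treated group was at 1.01 times the OVX mean.

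To see how common such a step is, the ratio of the second to the third highest library was taken for the 16874 genes left after removal of those with few counts. The median ratio was 1.05 and the 99th percentile 1.81. Fam111a, at 8.63, ranked 3. Only 5 genes (0.0296%) reached 5. Sh3d21 came first (41.2), with 1415 counts in OVX replicate 2, 1690 in OVX-AS-IV-High replicate 1 and between 10 and 33 in the other 7 libraries. Sgsm1, which encodes a modulator of small G proteins, followed (9.53), with the same 2 high libraries as Fam111a. Igfn1 (5.74) was high in Sham replicates 1 and 2, with 495 and 468 counts against 31 to 86. Gzmb (5.74), the cytotoxic protease granzyme B, was high in Sham replicate 2 and OVX-AS-IV-High replicate 2, with 215 and 270 counts against 6 to 40. Of the 5 genes, 2 thus had their step in OVX-AS-IV-High replicates 2 and 3, and the other 3 each in a different pair.

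Among the 10368 genes with a mean of at least 10 CPM, Fam111a was the only one whose ratio reached 5, although the mean of Sh3d21 lay just under that level. In these genes, 13 had a ratio of at least 2, and Fam111a alone of the 13 had OVX-AS-IV-High replicates 2 and 3 as its highest libraries. In the other direction, 14 of the 10368 genes had a step of at least 2 below the third lowest library. One of them, RT1-T24-4, a class I gene of the rat major histocompatibility complex, had its lowest counts in the same libraries, 1518 and 1798 against 4302 to 6381 in the 7 others. OVX-AS-IV-High replicates 2 and 3 were the highest pair in 616 of the 16874 genes (3.65%).

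**Figure D2:**
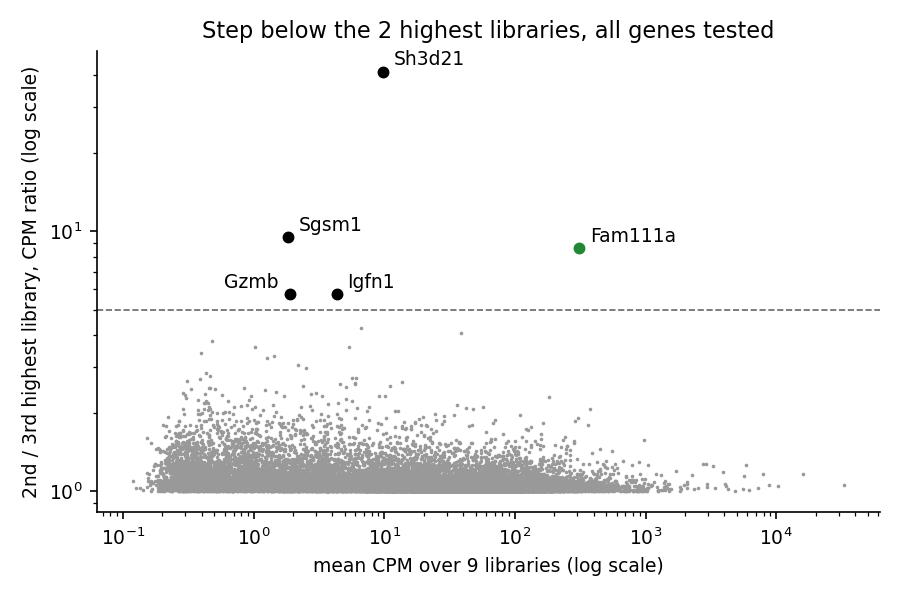
Ratio of the second to the third highest library (vertical axis, log scale) against mean CPM over the 9 libraries (horizontal axis, log scale) for 16874 genes; each point is a gene, the dashed line is a ratio of 5 and the 5 genes above it are named. Fam111a stands apart at 8.63, with a far higher mean level than the other 4.

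The genes whose pattern was most like that of Fam111a were sought by Pearson's r of log2 CPM over the 9 libraries. Since 2 libraries set the pattern, r is given only as a measure of likeness, together with r over the other 7. The r values in the gene lists further below are over all 9 libraries only and carry the same limit. Of 16873 genes, 6 had r above 0.9 and 16 had r below -0.9. The highest value belonged to Sgsm1 (r = 0.956), with 259 and 234 counts in OVX-AS-IV-High replicates 2 and 3 and between 9 and 23 elsewhere. Its levels in the other 7 libraries did not follow those of Fam111a (r = -0.406). Sgsm1 was the only one of the 10 most similar genes with a step of comparable size.

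The next was Gk5, a glycerol kinase, with 539 and 501 counts against 337 to 433 (r = 0.934; 0.793 over the other 7). Lrrc47 had 3082 and 3195 counts against 2215 to 2537 (r = 0.928; -0.737 over the other 7). Thoc1, a subunit of the THO complex for mRNA export, had 2421 and 2296 against 1926 to 2168 (r = 0.927; 0.643 over the other 7). Pak3, a p21-activated kinase, had 216 and 228 counts against 80 to 124 (r = 0.926; -0.166 over the other 7). These genes were higher in the same libraries, but by much smaller steps than Fam111a. LOC103691754, Epc1, LOC108348229, RGD1311595 and LOC102550425 completed the 10, with r between 0.887 and 0.902. Over the other 7 libraries, r of the 10 genes ran from -0.737 to 0.793. Of the 10, 1 lies on chromosome 1 with Fam111a and 9 on other chromosomes.

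The lowest r belonged to Ccdc137 (r = -0.974; -0.19 over the other 7), with 1173 and 1176 counts against 1505 to 1659. RT1-T24-4 (r = -0.957; 0.054 over the other 7) was next. LOC103692282 (r = -0.950) followed, with 104 and 101 counts against 204 to 408. Of the genes named for likeness, LOC103692282 alone also followed Fam111a closely in the other 7 libraries (r = -0.978), in the opposite direction.

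**Figure D3:**
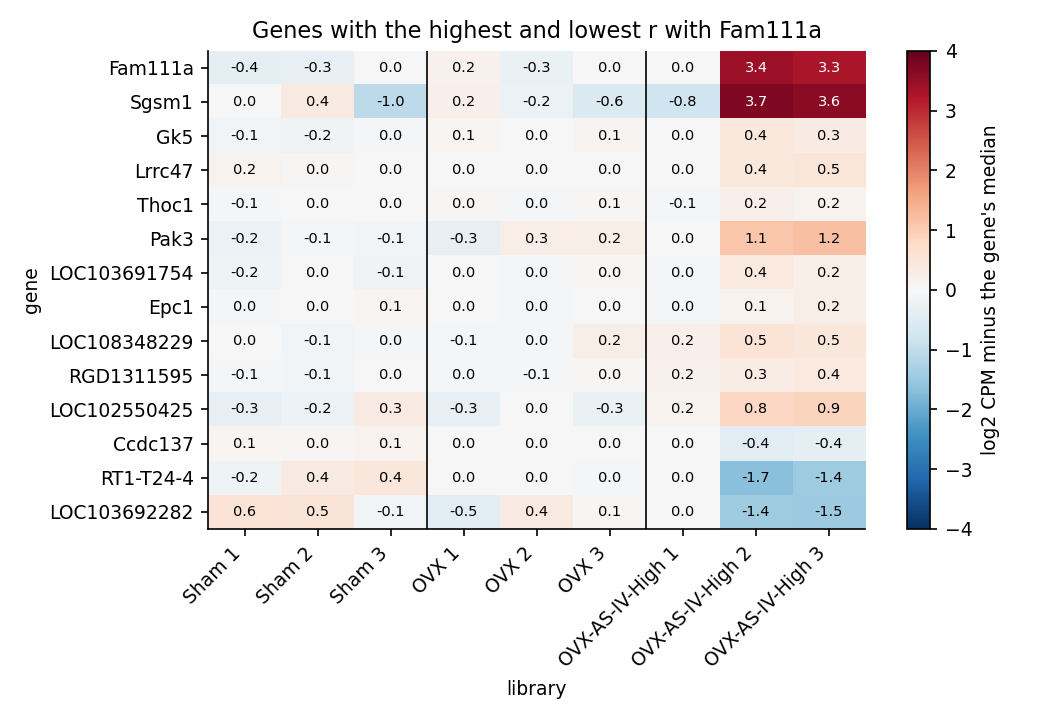
Log2 CPM minus the median of each gene over the 9 libraries (color and printed value), for Fam111a, the 10 genes with the highest r and the 3 with the lowest r (rows), in the 9 libraries (columns). Fam111a and Sgsm1 are more than 3 log2 units above their medians in OVX-AS-IV-High replicates 2 and 3, and the others move by less.

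The neighbours of Fam111a on the chromosome did not show its step. In the RefSeq order of genes on build GRCr8, used here for order only, the 10 nearest genes of the count table on each side were taken. Of these 20 genes, 12 had enough counts to be tested and 7 had at most 3 counts in every library. Ratios of the second to the third highest library ran from 1.00 to 1.07 in the 12 genes, and in 0 of them were OVX-AS-IV-High replicates 2 and 3 the highest pair. In OVX-AS-IV-High vs. OVX, their log2FC lay between -0.15 and 0.21. By edgeR's quasi-likelihood test, 0 of the 12 had an unadjusted p under 0.05 with an absolute log2FC over 1, thresholds passed by 0.83% of all genes tested (0.456% higher and 0.373% lower).

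Dtx4, an E3 ubiquitin ligase, had 980, 1168 and 1019 counts in OVX-AS-IV-High replicates 1, 2 and 3 and between 864 and 1272 in Sham and OVX. Mpeg1, which encodes the pore-forming protein perforin-2 of macrophages, had 6149, 7227 and 6395, and between 3974 and 7941 in Sham and OVX. Cntf, ciliary neurotrophic factor, had 167, 160 and 139, and between 115 and 189. The 3 treated libraries thus lay inside the range of the other groups for each of these genes. The same held for Osbp and Lpxn, but not for Zfp91. Zfp91 had 5563, 5398 and 4668 counts in the treated libraries, and between 4742 and 5322 in Sham and OVX. Osbp (log2FC -0.08, SE 0.08), Zfp91 (log2FC 0.04, SE 0.09) and Lpxn (log2FC -0.05, SE 0.19) had adjusted p-values of 0.945, 0.971 and 0.992 for OVX-AS-IV-High vs. OVX by the same test.

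The gene next to Fam111a in this order is its relative Fam111al1, listed in the count table as LOC691074. It had between 0 and 2 counts in all 9 libraries, which is at the limit of detection. RefSeq also lists a pseudogene, Fam111a-ps1, which is not among the genes counted and so has no counts of its own here. How reads shared by these copies were divided was not tested.

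**Figure D4:**
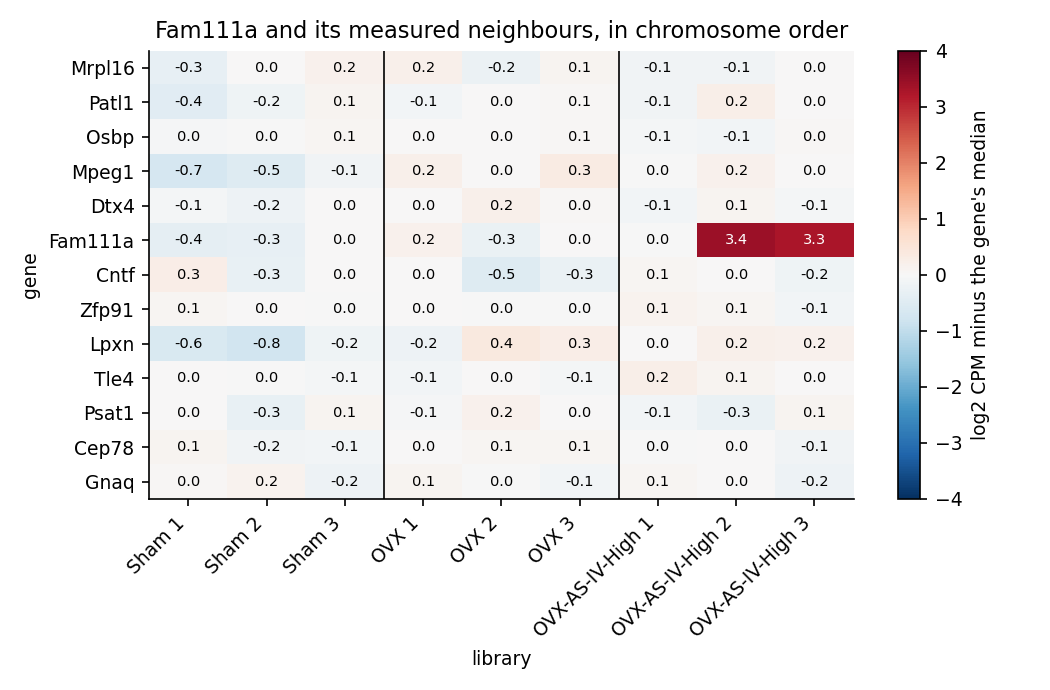
Log2 CPM minus the median of each gene over the 9 libraries (color and printed value) for Fam111a and the 12 measured genes around it, in chromosome order (rows), in the 9 libraries (columns). Fam111a is high in OVX-AS-IV-High replicates 2 and 3 (1117 and 1004 CPM), while none of the 12 neighbours has these libraries as its highest pair.

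Genes that work with FAM111A, or share its known roles, were examined in 5 lists with 117 genes, of which 108 had enough counts to be tested. In OVX-AS-IV-High vs. OVX, 0 of the 108 were past both thresholds, against 0.83% of all genes tested, and 1 (Bst2, lower) had an unadjusted p under 0.05, against 6.45%. For OVX vs. Sham, 1 member was past both thresholds with a higher level, against 1.08% of all genes, and 1 with a lower level, against 2.03% (2 members and 3.11% in all). For OVX-AS-IV-High vs. Sham, 2 were higher, against 1.11%, and 1 was lower, against 2.03% (3 members and 3.15% in all). The members' shares were thus near or below those of all genes. After adjustment over all genes tested, edgeR called 0 genes (0%) of the whole table in each of the 3 comparisons, and the smallest adjusted p-values were 0.652, 0.118 and 0.0639. An unadjusted p under 0.05 was found for 6.45%, 16.4% and 17.6% of all genes, respectively.

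The list of replication fork and crosslink repair partners had 32 genes, all tested. Their median log2FC in OVX-AS-IV-High vs. OVX was -0.05, against -0.02 for all genes, and ran from -0.19 to 0.35. Pcna had 8397, 11806 and 12587 counts in the treated libraries and between 6154 and 11610 in the others (log2FC -0.01, SE 0.23). It was the most abundant member, followed by Rpa3, a subunit of the single-stranded DNA binding complex RPA, and Mcm7, a subunit of the replicative helicase, with mean FPKM of 79.96 and 70.26 over the 9 libraries. For Sprtn, the protease that digests proteins crosslinked to DNA, the counts were 1163, 1260 and 1353, and between 986 and 1383 in the others. Top1, the topoisomerase whose trapped complexes FAM111A helps to remove, had a log2FC of 0.35 (SE 0.16, adjusted p = 0.796 by edgeR), the highest of the list. Parp1, a sensor of DNA breaks, had -0.19 (SE 0.22, adjusted p = 0.948 by edgeR), the lowest. No partner had a step like that of Fam111a: the largest ratio of the second to the third highest library was 1.16. The highest r with Fam111a in this list, 0.833, belonged to Rad18, a ubiquitin ligase that acts on PCNA. Rad18 had 1101 and 1015 counts in OVX-AS-IV-High replicates 2 and 3 and between 624 and 901 elsewhere. The lowest r, -0.637, belonged to Rfc2.

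The list of inherited hypoparathyroidism and dense or thick bone had 26 genes, of which 23 were tested. Its median log2FC in OVX-AS-IV-High vs. OVX was -0.002, and 0 members were past both thresholds in any of the 3 comparisons as reported here. Tbce, the tubulin chaperone gene behind the recessive form of Kenny-Caffey syndrome, had 2548, 2118 and 2088 counts in the treated libraries, between 2254 and 2848 in Sham and between 2332 and 2422 in OVX. Its counts in OVX-AS-IV-High replicates 2 and 3 were the lowest of the 9, but the group difference was small (log2FC -0.06, SE 0.11, adjusted p = 0.969 by edgeR). Casr, the calcium-sensing receptor, had 13, 37 and 22 counts in the treated libraries, while the OVX libraries had 17, 19 and 7 and the Sham libraries 16, 3 and 1. Its log2FC of 0.76 in OVX-AS-IV-High vs. OVX had an SE of 0.77. In OVX-AS-IV-High vs. Sham, Casr was past both thresholds with DESeq2 (log2FC 1.82), without a filter on low counts (1.81) and with the replicate block (2.05). It was also past them without Sham replicate 1 (3.44) and without OVX-AS-IV-High replicate 1 (2.09). Tbx1, a transcription factor of parathyroid development, was past them with the block (-1.67) and without OVX-AS-IV-High replicate 1 (-3.11). In OVX vs. Sham, Tbx1 was past them with the block (-1.52) and Casr without Sham replicate 1 (2.66). Gna11, which transmits the signal of this receptor, had 334, 613 and 445 counts in the treated libraries and between 384 and 519 elsewhere. The most abundant members were Car2 and Ctsk, enzymes of acid secretion and matrix breakdown in osteoclasts, and Tyrobp, an adaptor of myeloid receptors. Their log2FC were 0.17, -0.23 and -0.002 in the same comparison. Pth, the parathyroid hormone gene, was below the filter, with at most 14 counts in a library. Without OVX-AS-IV-High replicate 2, Pth was tested and was past both thresholds in OVX-AS-IV-High vs. Sham (log2FC 2.31). Among the tested members of this list, r with Fam111a ran from -0.8 (Tgfb1) to 0.695 (Snx10).

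Of 21 genes of parathyroid hormone, vitamin D and phosphate signals, 18 were tested. The median log2FC in OVX-AS-IV-High vs. OVX was -0.03. The most abundant members by mean FPKM were Prkar1a, a regulatory subunit of protein kinase A (92.02), Mepe, a matrix protein of osteocytes (60.7), and Gnas, which encodes the stimulatory G protein (56.86). Pth1r, the hormone's receptor, had 2659, 4430 and 4080 counts in the treated libraries and between 2587 and 5455 in the others. The members past both thresholds in the tests reported here all came from this list. Fgf23, the osteocyte hormone that lowers blood phosphate, had 72, 74 and 99 counts in the OVX libraries against 197, 131 and 271 in the Sham libraries, with no overlap (log2FC -1.36, SE 0.46, adjusted p = 0.208 by edgeR). Without Sham replicate 3, its log2FC was -1.07 and it was no longer past both thresholds. Klb, the coreceptor beta-klotho, had 31, 76 and 24 counts in the OVX libraries against 0, 10 and 7 in the Sham libraries (log2FC 2.82, SE 0.90, adjusted p = 0.199 by edgeR), and 2.88 in OVX-AS-IV-High vs. Sham. In that comparison Phex, an osteocyte protease-like protein of phosphate balance, had a log2FC of 1.03 and Cyp27b1, the vitamin D activating enzyme, one of -1.05. Phex was past both thresholds in 10 of 15 alternative fits, and not without Sham replicate 1 (0.95), Sham replicate 2 (0.83) or OVX-AS-IV-High replicate 2 (0.69). Cyp27b1 was past them in 3 of the 15, and not with the replicate block (-0.99), DESeq2 (-1.05) or without Sham replicate 1 (-0.54), which held 46 counts against 18 and 21. Phex had 1323, 2967 and 1960 counts in the treated libraries, but 2173 in OVX replicate 3, where Fam111a was at 104.0 CPM. Phex also had the highest r with Fam111a in this list, 0.719, and Slc20a2 had the lowest, -0.91.

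Of 26 interferon-stimulated and virus-restriction genes, 24 were tested. Their median log2FC in OVX-AS-IV-High vs. OVX was -0.10, and 0 were past both thresholds. Among the most abundant, Rsad2 had a log2FC of 0.25, Ifitm3 one of -0.43 and Bst2, which tethers budding viruses to the cell, one of -0.58. Samhd1, another nuclear restriction factor, had the highest r with Fam111a in this list, 0.326. Several members were low where Fam111a was high. Isg15, a ubiquitin-like interferon product, had 691, 93 and 52 counts in OVX-AS-IV-High replicates 1, 2 and 3. The OVX libraries had 179, 130 and 608, and the Sham libraries 184, 366 and 337. Oas2, a sensor of double-stranded RNA, had the lowest r with Fam111a in this list, -0.778, with 278, 38 and 23 counts in the treated libraries. Its counts were 94, 59 and 281 for OVX and 119, 186 and 172 for Sham. Isg15 and Oas2 were named after their values were seen. In 5 of the 24 genes (Irf7, Irf9, Isg15, Oas2 and Oasl), OVX-AS-IV-High replicates 2 and 3 were the lowest pair. That is a larger share than the 5.11% of all genes tested, and the difference was not tested. The other 4 lists, in the order given here, had 0 of 32, 2 of 23, 1 of 18 and 1 of 11. Without OVX-AS-IV-High replicate 1, 5 list members, Irf7, Isg15, Mx1, Oas1a and Oas2, were past both thresholds against OVX, all lower. That fit keeps only the 2 libraries high in Fam111a, so it is no independent test. The share of all genes past both thresholds in that fit was not taken, so the 5 cannot be judged against it.

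The list of trypsin-like serine proteases had 12 genes, 11 of them tested, with a median log2FC in OVX-AS-IV-High vs. OVX of 0.0002 and values from -0.45 to 0.41. Htra1 and Htra2, which share the protease fold, and Prss23 were the most abundant, with log2FC of -0.24, 0.04 and 0.41. The highest r with Fam111a in this list was 0.24, for Htra1, and the lowest was -0.579, for Htra2.

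**Figure D5:**
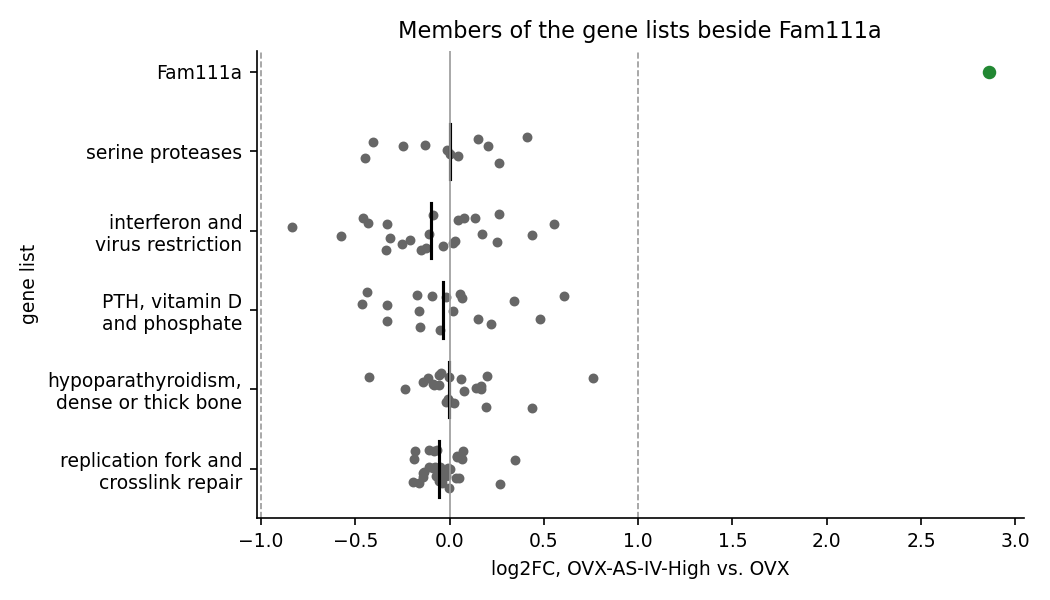
Log2FC in OVX-AS-IV-High vs. OVX (horizontal axis) for the tested members of the 5 gene lists and for Fam111a (vertical axis); points are genes, thick ticks are medians and dashed lines mark a log2FC of 1 and -1. Fam111a is at 2.86, and all 108 list members lie between the dashed lines.

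Because bone RNA comes from many cell types, 12 marker lists with 69 genes were summed in each library. Fewer cells of a type and less RNA per cell cannot be told apart in such bulk samples. Markers of osteoblasts, osteoclasts, osteocytes, neutrophils and erythroid cells were all present. Summed osteoblast markers were 5153, 14150 and 9498 CPM in OVX-AS-IV-High replicates 1, 2 and 3, but 17190 in OVX replicate 2, where Fam111a was at 86.4 CPM. Summed skeletal muscle markers varied most, by 16.8 times, with 3827, 1761 and 461.9 CPM in the treated libraries and between 1339 and 7761 in the others. Proliferation markers had 1420, 1561 and 1835 CPM in the treated libraries, and between 1035 and 1868 in the others. For 10 of the 12 lists, both libraries with high Fam111a lay inside the range of the other 7. The exceptions were muscle, lowest in OVX-AS-IV-High replicate 3, and adipocyte markers, at 598.7 CPM in replicate 2 against 588.4 in OVX replicate 3. The part of cell composition in the levels of Fam111a was not tested.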

How the data were processed

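Reads were cleaned by the authors with NGS QC Toolkit and aligned with Tophat; gene levels were then estimated by eXpress from Bowtie2 alignments. The submitters' processing notes name build mRatBN7.2. The deposited tables give each of 23026 genes its counts, as whole numbers, and its FPKM; how eXpress estimates became whole counts is not given in the sources used here. Reads shared by similar genes are assigned by estimation in eXpress, and isoforms are not resolved.

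For the comparisons, edgeR 4.0.16 (R 4.3.3) fitted the counts by quasi-likelihood (TMM, minimum count of 10, all 9 libraries in 1 fit, 16874 genes; common biological coefficient of variation 0.256), with Benjamini-Hochberg adjustment over all genes. Both thresholds means p under 0.05 before adjustment together with a log2FC beyond 1 or -1. Each SE was derived from that test, as the absolute log2FC divided by the square root of its F statistic. The fit was tested on simulated data. Fam111a was not tested, since its counts chose it. Members and lists were chosen with earlier results of these data known. Genes named are Fam111a, the 10 most and 3 least similar by Pearson's r of log2 CPM (prior count 2), and the 5 largest steps. Also named are the 3 nearest measured neighbours on each side, and in each list members past both thresholds and the 3 most abundant by FPKM. A further 8 were chosen for their roles. Those with the highest or lowest r in a list, and others so described, were added after their values were seen. Of the identifiers, 21657 matched RefSeq (GRCr8). Alternatives were DESeq2 1.42.0, RLE size factors, no filter, limma 3.58.1 on log2(FPKM + 1) and log2(FPKM + 0.1), a replicate block and leaving out each library. For OVX and OVX-AS-IV-High, deviations of same-numbered libraries correlated at 0.31, 0.158 and 0.131. Differently numbered libraries were not correlated, so these values cannot show whether the numbers pair the libraries. The reported tests have no block, and the blocked fit is an alternative. With Sham, 1 of 3 correlations was negative in each case. By the study's methods, the 3 RNA samples of a group were independent biological replicates; the labels do not tie libraries to animals. No 2 libraries held identical values. Plots used matplotlib 3.10.9 in Python 3.11.15.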

Additional observations from a re-analysis of the deposited data

How the results depend on the processing

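The log2FC of Fam111a stayed positive in all 3 comparisons under every alternative. Each alternative kept at least 1 of the high libraries by which the gene was chosen. A positive sign in the comparisons of treated rats is therefore no independent support. The same holds for the rank of its step given below. In OVX-AS-IV-High vs. OVX it was 2.86, 2.87 with DESeq2, 2.20 with limma on log2(FPKM + 1) and 2.58 with the replicate block. Leaving out 1 library gave 2.44 to 3.37 in OVX-AS-IV-High vs. OVX, 0.09 to 0.32 in OVX vs. Sham and 2.63 to 3.56 in OVX-AS-IV-High vs. Sham. The number of list members past both thresholds ranged from 0 to 5 in the first comparison when 1 library was left out (5 without OVX-AS-IV-High replicate 1), from 2 to 4 in the second (4 without Sham replicate 3) and from 2 to 8 in the third (8 without OVX-AS-IV-High replicate 1). Limma on log2(FPKM + 1) gave 0 for OVX vs. Sham and likewise 0 for OVX-AS-IV-High vs. Sham, and the replicate block gave 5 for the latter; the cause was not tested. The replicate block moved no other such count by over 1.5 times. For all genes, the share past both thresholds was taken only in the main fit, so these member counts cannot be set against it. Fam111a kept rank 3 for its step on FPKM and without a filter (0.5 CPM added). The similar genes were less stable: of the 10, 7 remained with log2(FPKM + 1), 0 with Spearman's rho, 5 without OVX-AS-IV-High replicate 2 and 1 without replicate 3.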
